A study of Mus musculus with 18 samples.

Results

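The 35 genes described here encode the carriers, enzymes and regulators of glycolysis (28 genes) and the enzymes of the pentose phosphate pathway (7 genes). They were chosen by gene symbol from the 22787 genes of the deposited table, and all 35 symbols were found. Glycolysis breaks glucose down to pyruvate and yields ATP, and lactate dehydrogenase turns pyruvate into lactate so that the flux can go on. The pentose phosphate pathway starts from glucose 6-phosphate: its oxidative branch makes NADPH, and its non-oxidative branch exchanges sugar phosphates with glycolysis and supplies ribose for nucleotides. Neutrophils live largely on glycolysis and use NADPH for the oxidative burst. In other cell types, the kinase complex mTORC1 is known to raise the expression of glycolytic and pentose phosphate genes.

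RNA of 18 mouse samples was sequenced by the low-input SmartSeq2 method, and the samples fall into 7 groups. Granulocyte-monocyte progenitors (GMPs), the marrow cells that give rise to neutrophils and monocytes, came from 4 groups of mice, namely Raptor KO and its Raptor fl/fl control and Tsc2 KO and its control, Tsc2 fl/fl (3 libraries each, 10000 sorted cells). They were sorted from marrow as kit+ Sca- CD127- FcgRII/III+ cells that were low for CD34 and Ly6C and CD135-, after staining that included a lineage panel. DR-ER-Hoxb8 cells, a progenitor line kept immature by an estrogen-dependent Hoxb8, were differentiated for 3 days without estradiol in medium with SCF, and received rapamycin at 100 nM, SL0101-01 at 10 nM or DMSO (2 libraries each). Raptor, encoded by Rptor, is the defining subunit of mTORC1, and Tsc2 is part of the complex that restrains mTORC1. Rapamycin inhibits mTORC1, and SL0101 inhibits the RSK kinases. The labelled dose of SL0101-01 is far below the micromolar range in which this compound is commonly used and could not be checked, so its results, and its comparison with rapamycin, hold for the dose as labelled. The labels do not name the Cre driver, the age of the mice, or whether replicates were separate animals or cultures, so the p-values measure the spread between these libraries, which may be technical. The genotype entries of the Tsc2 libraries carry the name Raptor, so the sample titles decided the groups.

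Values are in signal units, the fragments of a gene scaled by a factor for each library, without correction for gene length. Libraries held 2477382 to 3524325 fragments in GMPs and 2313883 to 3296898 in Hoxb8 cells. Tsc2 itself averaged 95.1 ± 10.8 signal units in Tsc2 KO and 248 ± 18 in Tsc2 fl/fl GMPs (SD, n = 3 each, log2 difference -1.38, limma adjusted p = 1.7e-04). Rptor averaged 63.3 ± 5.61 in Raptor KO and 84.5 ± 5.11 in Raptor fl/fl GMPs and did not pass the test (-0.41, adjusted p = 0.377). The labels do not say which exons are deleted, so this gene-level value is a weak check of the Raptor label. Summed over 12 GMP markers, such as Mpo and Elane, the level was 64709 to 67542 signal units in Raptor KO, 71333 to 82125 in Raptor fl/fl, 8783 to 40902 in Tsc2 KO and 37121 to 83375 in Tsc2 fl/fl libraries. The Tsc2 line stood apart in its spread: replicates 2 and 3 of Tsc2 KO and replicate 2 of Tsc2 fl/fl had the lowest GMP marker sums of the line (8783, 13141 and 37121). Replicate 2 of Tsc2 KO and of Tsc2 fl/fl were also the 2 GMP libraries with Y-linked transcripts (317.7 and 384.9 signal units summed over 4 genes, against at most 0.778 in the other 10).

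Both pathways were expressed in every group, with a different isoform pattern in GMPs and Hoxb8 cells. Levels of different genes are compared per kilobase of exon, with lengths from the GENCODE annotation of GRCm38, because the deposited values are not per length. Ldha, the lactate dehydrogenase subunit typical of glycolytic cells, had the highest group mean of the 35 in every GMP group, at 1376 signal units per kilobase in Raptor KO, 1374 in Raptor fl/fl, 1486 in Tsc2 KO and 1308 in Tsc2 fl/fl. In Hoxb8 cells the isomerase gene Gpi1 was highest with both inhibitors, at 2388 with rapamycin and 2383 with SL0101-01, against 1768 with DMSO. The transaldolase gene Taldo1 was highest with DMSO, at 2113 per kilobase, beside 1987 with rapamycin and 1806 with SL0101-01. Pgam1, Taldo1 and Tkt were among the 6 highest members in at least 6 of the 7 groups. Ldha, Gpi1, Pgam1 and lower-ranked members such as Gapdh share sequence with other genes, as given below. The ranking therefore holds for the values as counted.

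Within families, shares of the family's signal per kilobase describe which isoform dominates. Among the hexokinases, which trap glucose in the cell, Hk3 held 50.1% to 54.7% in Raptor KO, 69.4% to 76% in Raptor fl/fl, 19.5% to 58.8% in Tsc2 KO and 52.4% to 74.9% in Tsc2 fl/fl libraries. In Hoxb8 cells its share was 80.2% to 82.2% with rapamycin, 76.9% to 79.1% with SL0101-01 and 78.8% to 79% with DMSO. The Raptor groups did not overlap in this share, and the Hk1 share ran the other way, at 34.5% to 36.8% in Raptor KO and 17.7% to 24% in Raptor fl/fl libraries. Of the monocarboxylate carriers that move lactate across the membrane, Slc16a1 (MCT1) held 95% to 97.7% in Raptor KO, 91.4% to 93.8% in Raptor fl/fl, 84.5% to 92.9% in Tsc2 KO and 92% to 95.2% in Tsc2 fl/fl GMPs, so nearly all of the pair. In Hoxb8 cells Slc16a3 (MCT4) was the larger, with 59.8% to 63.2% in rapamycin, 58.4% to 60.0% in SL0101-01 and 77.4% to 79.7% in DMSO libraries. Ldhb, the other lactate dehydrogenase subunit, held 4.01% to 7.19%, 6.95% to 9.00%, 1.24% to 5.01% and 3.34% to 11.6% of its pair in the 4 GMP groups in the order above, and was detected in 1 of 6 Hoxb8 libraries, at 0.916 signal units, the worth of 1 fragment. Aldoc and Eno2, isoforms best known from the brain, stayed at or below 6.63 and 2.89 signal units in all 18 libraries, and Aldoa and Eno1 carried those steps.

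**Figure D1:**
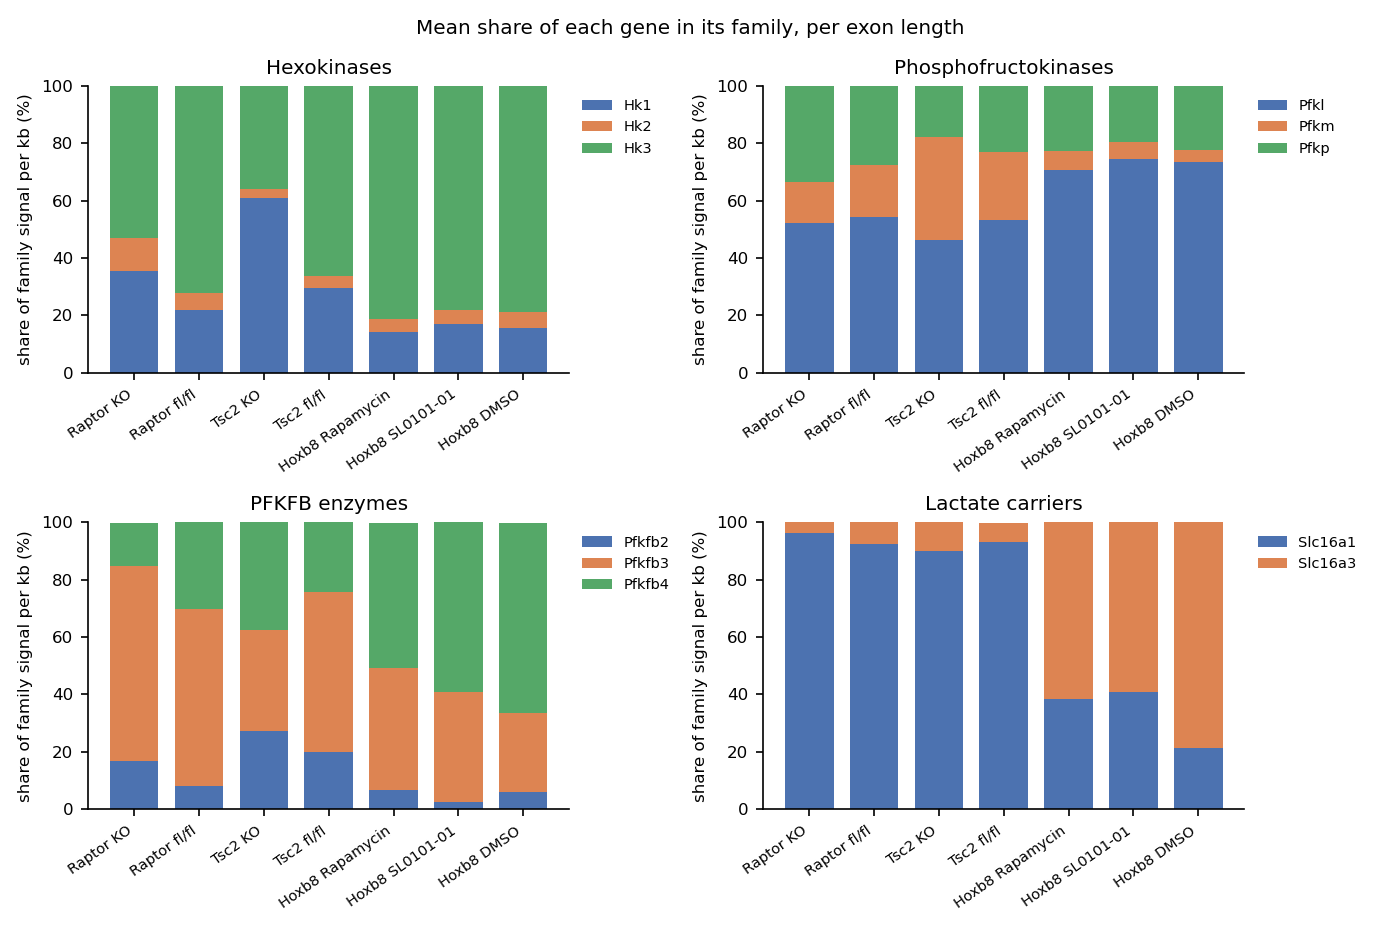
Mean share of each gene in its family's signal per kilobase of exon (vertical axes, percent) for the hexokinases, phosphofructokinases, PFKFB enzymes and lactate carriers, in the 7 groups (horizontal axes). Hk3 is the largest hexokinase in every group but Tsc2 KO, and the lactate carrier pair is led by Slc16a1 in the GMP groups and by Slc16a3 in the Hoxb8 groups.

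The first comparison, Raptor KO against Raptor fl/fl GMPs, asks what loss of Raptor does to these genes. The transaldolase gene Taldo1 fell, and it was the 1 member of 35 that passed the test, which is limma on log2 of the value plus 1 with Benjamini-Hochberg adjustment over all genes at 0.05. That is 2.86% of the members, against 3.94% of the 13237 genes tested (1.53% higher and 2.42% lower). Of all genes called 38.7% were higher, and 50% with voom weights. All 7 pentose phosphate genes had negative log2 differences, with a median of -0.32, against a median of 0.03 over all genes tested. Of the 28 glycolysis genes 14 were positive and 14 negative, with a median of -0.01, and none passed with limma or with voom weights, while 5 had an unadjusted p under 0.05. The lowest adjusted p among them was 0.0543, for Pdk3.

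Taldo1 returns sugar phosphates of the pentose phosphate pathway to glycolysis. It had 950.1, 918 and 993 signal units in the Raptor KO libraries, against 1559.9, 1488 and 1589 in the Raptor fl/fl libraries. Every knockout library was below every fl/fl library. The log2 difference was -0.70 (SE 0.10, 1.62-fold lower, limma adjusted p = 0.00104), and the gene passed in every alternative and without any single library. Its promoter window in the RefSeq annotation of GRCm38.p6, from 250 bases before to 50 after the start, is shown because Taldo1 was called in both knockouts. Capitals mark GCGTG or its reverse complement, a form of the core bound by hypoxia-inducible factors.
Taldo1, chr7:141391910-141392209, plus strand: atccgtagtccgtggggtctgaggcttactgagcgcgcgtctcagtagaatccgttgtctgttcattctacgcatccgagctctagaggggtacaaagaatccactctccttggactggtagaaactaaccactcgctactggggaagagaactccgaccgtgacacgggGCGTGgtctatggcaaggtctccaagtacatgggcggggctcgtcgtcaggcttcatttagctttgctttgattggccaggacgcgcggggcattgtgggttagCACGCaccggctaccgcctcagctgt

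The other pentose phosphate genes were lower in Raptor KO by smaller steps that did not pass. Here and below, overlap between groups was read for listed genes only. The share of all genes tested without overlap was not counted, so a lack of overlap only describes these values. Pgd, the second NADPH-producing dehydrogenase, had 342, 312 and 388 signal units in Raptor KO and 506, 482 and 510.4 in Raptor fl/fl libraries, without overlap (-0.53, SE 0.15, limma adjusted p = 0.0577). Tkt, the transketolase that works beside Taldo1, had 2608, 2376 and 2507 in Raptor KO and 3303, 3202 and 2844 in Raptor fl/fl libraries, again without overlap (-0.32, SE 0.09, adjusted p = 0.0634). Pgls, the lactonase between the 2 dehydrogenases, had 678, 569 and 602 in Raptor KO and 861, 745 and 735 in Raptor fl/fl libraries (-0.34, adjusted p = 0.272). The groups were apart here too, by a smaller gap. G6pdx, the dehydrogenase that commits glucose 6-phosphate to the pathway, averaged 175 ± 12.4 in Raptor KO and 185 ± 18.1 in Raptor fl/fl (SD, n = 3 each), and its groups overlapped (-0.07, 95% interval -0.39 to 0.25). The isomerase Rpia and the epimerase Rpe, which interconvert pentose phosphates, overlapped as well (-0.20 and -0.08).

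In glycolysis, Hk3, the hexokinase of myeloid cells, had 296, 360.5 and 298 signal units in Raptor KO and 642, 631 and 609 in Raptor fl/fl libraries. All 3 knockout libraries were below the fl/fl libraries, but the gene did not pass (-0.98, SE 0.46, limma adjusted p = 0.284). The spread in this test is estimated over both lines, and Hk3 ran from 101 to 735 in the Tsc2 line. Pdk3, a kinase that switches off pyruvate dehydrogenase, had 198, 167 and 242 in Raptor KO and 346, 267 and 298 in Raptor fl/fl libraries, without overlap (-0.59, SE 0.17, adjusted p = 0.0543). Pgam1, the phosphoglycerate mutase, had 1939.9, 1828 and 1822 in Raptor KO and 2403, 2275 and 2318 in Raptor fl/fl libraries (-0.32, adjusted p = 0.739). These groups did not overlap either. Ldha had 2764, 2384 and 2677 in Raptor KO and 2887, 2529 and 2395 in Raptor fl/fl libraries, with overlap and a log2 difference of 0.00 (95% interval -0.22 to 0.23).

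When the spread was estimated from the 6 Raptor libraries alone, 8 members passed, against 10% of 12442 genes tested. Those lower in Raptor KO were Taldo1, Pgd, Tkt, Hk3, Pdk3, Pgam1 and Ldhb, and Pfkp, the platelet-type phosphofructokinase, was higher (0.59, adjusted p = 0.0161). The log2 differences are those of the shared fit, and the adjusted p was 8.8e-06 for Hk3, 0.00753 for Pgd and 0.0265 for Tkt. The 3 pentose phosphate genes Pgd, Tkt and Taldo1 thus passed in that fit, all lower.

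Carriers and other regulators in Raptor KO overlapped with fl/fl or did not pass. Slc2a3 (GLUT3), the larger of the glucose carriers here, had 64.4, 71.3 and 62 signal units in Raptor KO and 58.4, 78.6 and 71.4 in Raptor fl/fl libraries, and the groups overlapped (-0.07). Slc16a1 had 330.4, 238 and 258 in Raptor KO and 229, 251 and 267 in Raptor fl/fl libraries (0.13), and its groups overlapped. Slc16a3 was low in both, at 7.78 to 12.6 in Raptor KO and 15.2 to 25.2 in Raptor fl/fl libraries (-0.96, limma adjusted p = 0.175). Pfkfb3, of the enzymes that set fructose 2,6-bisphosphate, the activator of phosphofructokinase, had 138, 156 and 156 in Raptor KO and 153, 136 and 110.4 in Raptor fl/fl libraries, which overlapped. Gpi1 had 3158, 3051 and 2891 in Raptor KO and 2913, 2925 and 2815 in Raptor fl/fl libraries (0.07). Pdha1, the catalytic subunit of pyruvate dehydrogenase, had 741, 685 and 704 in Raptor KO and 710.0, 539 and 598 in Raptor fl/fl libraries (0.21). Both genes overlapped between the groups.

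Other regulators were apart between the groups without passing. Pfkfb2 had 29, 40.1 and 31.9 signal units in Raptor KO and 22.4, 12.5 and 13 in Raptor fl/fl libraries (1.07, limma adjusted p = 0.122). Pfkfb4 had 24.8, 16.4 and 22.6 in Raptor KO and 59.2, 34.3 and 32.5 in Raptor fl/fl libraries (-0.92, adjusted p = 0.153). Pdk1 had 270.3, 233.4 and 258.4 in Raptor KO and 195.5, 232.8 and 194.7 in Raptor fl/fl libraries (0.29, adjusted p = 0.324). The Raptor KO libraries lay above the fl/fl libraries for Pfkfb2 and Pdk1 and below them for Pfkfb4, and for Pdk1 the gap was less than 1 signal unit. Bpgm, which makes 2,3-bisphosphoglycerate in red cells, averaged 35.4 ± 5.09 in Raptor KO and 63.1 ± 22.2 in Raptor fl/fl (-0.77, adjusted p = 0.138), without overlap.

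Marker sums of other cell types differed between the Raptor groups, but in some lists the genes did not all move together. Over the 13 of 14 erythroid markers in the table the sum was 1832 to 2396 signal units in Raptor KO and 3993 to 4456 in Raptor fl/fl libraries, and none was at 0. Over 7 mast cell, basophil and eosinophil markers it was 14246 to 17901 in Raptor KO and 5078 to 10913 in Raptor fl/fl libraries, and over 9 B lymphoid markers 139 to 183 in Raptor KO and 817 to 1198 in Raptor fl/fl. The 7 megakaryocyte markers summed to 431 to 475 in Raptor KO and 1056 to 1294 in Raptor fl/fl. The 10 macrophage markers, of which Cd5l and Vsig4 were at 0 in Raptor KO, summed to 337 to 908 in Raptor KO and 123 to 224 in Raptor fl/fl. The macrophage markers did not move in 1 direction: of 9 tested, 5 had a positive and 4 a negative log2 difference, with 1 called higher and 1 lower. The 10 markers of mature neutrophils summed to 429 to 532 in Raptor KO and 687 to 1943 in Raptor fl/fl. Of these 10, 4 had a positive and 6 a negative log2 difference (median -2.50), with 2 called, both lower. The 6 of 7 T and NK cell markers in the table summed to 1058 to 1184 in Raptor KO, with Gzma at 0. In Raptor fl/fl they summed to 1271 to 1413. Of 5 tested, 2 were positive and 3 negative, with 1 called lower. Among the 7 mast cell, basophil and eosinophil markers 6 were positive and 1 negative, and 0 were called. The share of all genes called was 3.94%. The part of these marker genes in the lower pentose phosphate values was not tested. In bulk RNA, fewer cells of a type and less RNA per cell cannot be told apart.

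**Figure D2:**
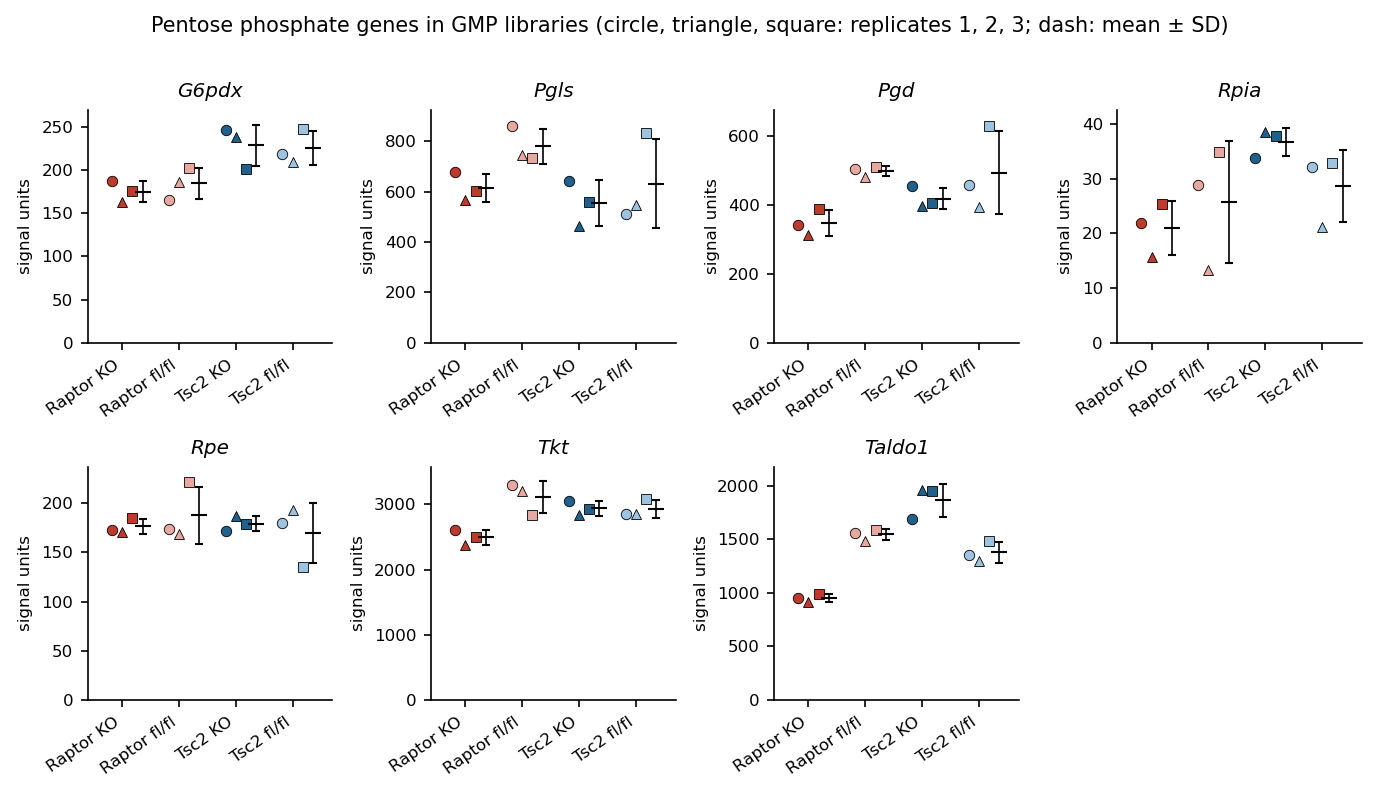
Signal units (vertical axes, from 0) of the 7 pentose phosphate genes in the 12 GMP libraries, 1 panel per gene, with the 4 groups on the horizontal axis. Symbols are replicates 1 to 3 and dashes give mean ± SD. Taldo1 lies at 918 to 993 in Raptor KO, below all Raptor fl/fl libraries, and at 1688 to 1959 in Tsc2 KO, above all Tsc2 fl/fl libraries.

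The second comparison, Tsc2 KO against Tsc2 fl/fl GMPs, asks what release of mTORC1 from Tsc2 does to these genes. Taldo1 and Pfkm, the muscle-type phosphofructokinase, rose and Gpi1 fell, which is 3 of 35 members or 8.57%, against 12.4% of the 13237 genes tested (5.26% higher and 7.12% lower). Pentose phosphate genes had a median log2 difference of 0.02 and glycolysis genes of -0.02, against -0.02 over all genes. The members did not move in 1 direction, with 19 positive and 16 negative differences.

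Taldo1 had 1688, 1959 and 1947 signal units in Tsc2 KO and 1349.9, 1299 and 1486 in Tsc2 fl/fl libraries. The groups did not overlap (0.43, SE 0.10, 1.35-fold higher, limma adjusted p = 0.0111). It no longer passed without Tsc2 KO replicate 2 (0.40, adjusted p = 0.0726), without Tsc2 KO replicate 3 (0.40, 0.0724) or without both replicate 2 libraries with Y-linked transcripts (0.36, 0.0956). It was also lost without an expression trend (adjusted p = 0.0883) and with the 6 Tsc2 libraries alone (0.0606).

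Tkt, its partner, had 3055, 2834 and 2926 in Tsc2 KO and 2852, 2859 and 3091 in Tsc2 fl/fl libraries, with overlap (0.00, 95% interval -0.20 to 0.20). Pgd had 455, 397 and 406 in Tsc2 KO and 459.5, 395 and 629 in Tsc2 fl/fl libraries, also overlapping (-0.21, adjusted p = 0.401). Replicate 3 of Tsc2 fl/fl was the highest of these 6 for Pgd. Rpia had 33.8, 38.5 and 37.8 in Tsc2 KO and 32.1, 21.2 and 32.9 in Tsc2 fl/fl libraries, apart by a narrow gap and far from the threshold (adjusted p = 0.584). G6pdx, Pgls and Rpe overlapped between the groups, with log2 differences of 0.02, -0.16 and 0.09.

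Gpi1, which turns glucose 6-phosphate into fructose 6-phosphate, had 2048, 1019 and 1245 signal units in Tsc2 KO and 2827, 1864 and 2925 in Tsc2 fl/fl libraries. Replicate 1 of Tsc2 KO lay above replicate 2 of Tsc2 fl/fl, so the groups overlapped (-0.86, SE 0.22, limma adjusted p = 0.0246). Gpi1 lost its call without Tsc2 KO replicate 2 (-0.64, 0.0726) or 3 (-0.78, 0.103), and without Tsc2 fl/fl replicate 1 (-0.76, 0.112) or 3 (-0.74, 0.0938). It was lost as well without an expression trend (0.0790) and with the 6 Tsc2 libraries alone (0.117). Pfkm, which commits fructose 6-phosphate to glycolysis, had 135, 229.7 and 193 in Tsc2 KO and 67.6, 162 and 92.2 in Tsc2 fl/fl libraries. These groups overlapped as well (0.85, SE 0.27, adjusted p = 0.0456). Pfkm lost its call when Tsc2 KO replicate 2 (0.68, 0.209) or 3 (0.81, 0.153), or Tsc2 fl/fl replicate 1 (0.57, 0.234) or 3 (0.79, 0.136) was left out. It was also lost without a trend, with quantile normalization, without a filter, with the 6 Tsc2 libraries alone and with all 18 libraries in 1 fit (adjusted p up to 0.145).

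Several other glycolysis genes followed the order of the Tsc2 KO libraries seen for Gpi1 and did not pass as tested. Some of them passed in other fits, which are named below. Hk3 had 424, 101 and 175 signal units in Tsc2 KO and 667, 366 and 735 in Tsc2 fl/fl libraries (-1.52, limma adjusted p = 0.0604). Pgam1 had 2066, 587 and 880.0 in Tsc2 KO and 2351, 1240.3 and 2283 in Tsc2 fl/fl libraries (-0.88, adjusted p = 0.217). Pfkfb3 had 69.6, 20.6 and 26.7 in Tsc2 KO and 160.4, 48.2 and 82.8 in Tsc2 fl/fl libraries (-1.33, adjusted p = 0.0637). In all 3 genes replicate 1 was the highest Tsc2 KO library and replicate 2 the lowest in both groups, and the groups overlapped. Hk2, the inducible hexokinase, had 55, 15.8 and 27.4 in Tsc2 KO and 81.5, 42.3 and 72.4 in Tsc2 fl/fl libraries (-1.10, adjusted p = 0.0510). Ldhb had 98.1, 23.4 and 34.8 in Tsc2 KO and 207, 56.7 and 138 in Tsc2 fl/fl libraries (-1.42, adjusted p = 0.111), and both showed the same order of libraries. Hk1 ran the opposite way, with 383, 589 and 576 in Tsc2 KO and 253, 445 and 368 in Tsc2 fl/fl libraries (0.55, adjusted p = 0.0988). Ldha had 2701, 2704 and 3042 in Tsc2 KO and 2299, 2383 and 2752 in Tsc2 fl/fl libraries (0.19, adjusted p = 0.284), and overlapped.

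Slc2a3, Slc16a1 and Pdha1 overlapped between Tsc2 KO and Tsc2 fl/fl. The carrier Slc16a3 was apart between these groups without passing, and its values are given with the third comparison. Slc2a3 had 83.5, 86.7 and 69.6 signal units in Tsc2 KO and 46.8, 82.1 and 73.4 in Tsc2 fl/fl libraries (0.28, limma adjusted p = 0.511). Slc16a1 had 357, 457 and 356 in Tsc2 KO and 228, 397 and 306 in Tsc2 fl/fl libraries (0.36, adjusted p = 0.222). Pdha1 had 575, 537 and 536 in Tsc2 KO and 551, 570.2 and 591 in Tsc2 fl/fl libraries (-0.06, adjusted p = 0.818). Slc16a1 and Slc2a3 had their lowest library at replicate 1 of Tsc2 fl/fl.

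The summed erythroid markers ran opposite to Gpi1, Hk3, Pgam1, Pfkfb3, Hk2 and Ldhb in Tsc2 KO, and in part in Tsc2 fl/fl. They came to 12460, 25126 and 23108 signal units in Tsc2 KO replicates 1 to 3, and 3023, 10595 and 5649 in Tsc2 fl/fl replicates 1 to 3, with none of the 13 at 0. In both groups the library with the highest sum, replicate 2, was the lowest for all 6 genes. The library with the lowest sum, replicate 1, was the highest for all 6 in Tsc2 KO. In Tsc2 fl/fl it was the highest for Pgam1, Pfkfb3, Hk2 and Ldhb, but replicate 3 was the highest for Gpi1 and Hk3. The GMP marker sums, 40902, 8783 and 13141 in Tsc2 KO and 79192, 37121 and 83375 in Tsc2 fl/fl, had their lowest library at replicate 2 in both groups, like these genes. Over the 10 of 11 macrophage markers in the table the sum was 469 to 731 in Tsc2 KO and 17 to 75 in Tsc2 fl/fl libraries, where Vsig4 was at 0. B lymphoid markers summed to 21 to 76 in Tsc2 KO, with Pax5 at 0, and 338 to 570 in Tsc2 fl/fl, and megakaryocyte markers to 162 to 182 in Tsc2 KO and 386 to 781 in Tsc2 fl/fl. Mature neutrophil markers summed to 1074 to 3441 in Tsc2 KO and 426 to 1557 in Tsc2 fl/fl, T and NK markers to 218 to 794 in Tsc2 KO and 770 to 1279 in Tsc2 fl/fl with Cd3e at 0 in both, and mast cell, basophil and eosinophil markers to 3723 to 10075 in Tsc2 KO and 2549 to 4567 in Tsc2 fl/fl, and these 3 sums overlapped. The part of these markers in the glycolysis values was not tested.

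Calls in the Tsc2 line changed when single libraries were left out. The number of members called was 10 without Tsc2 KO replicate 1, against 19% of all genes, and 9 without Tsc2 fl/fl replicate 2, against 17.4%. It was 0 without Tsc2 KO replicate 2 (5.04% of all genes) or 3 (4.57%), and 1 without Tsc2 fl/fl replicate 1 (5.36%) or 3 (6.54%). Without Tsc2 KO replicate 1, Hk3 (-2.08), Pgam1 (-1.39), Pfkfb3 (-1.84), Hk2 (-1.55), Ldhb (-2.01) and Pgk1 (-0.44) passed as lower and Hk1 (0.75) as higher, beside the 3 calls above (limma adjusted p up to 0.0266 for these 7). Without both libraries with Y-linked transcripts 5 members passed, of which 1 was higher and 4 lower, against 9.78% of 13040 genes. The 4 lower ones included Hk3 (-1.36, limma adjusted p = 0.0101), Pfkfb3 (-1.40, 0.0242) and Ldhb (-1.52, 0.0207). With a term for the replicate number 9 members passed, against 18.9% of 13237 genes. Hk3, Pfkfb3, Ldhb, Hk2 and Pgam1 were among those lower and Hk1 among those higher (limma adjusted p up to 0.00528 for these genes).

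**Figure D3:**
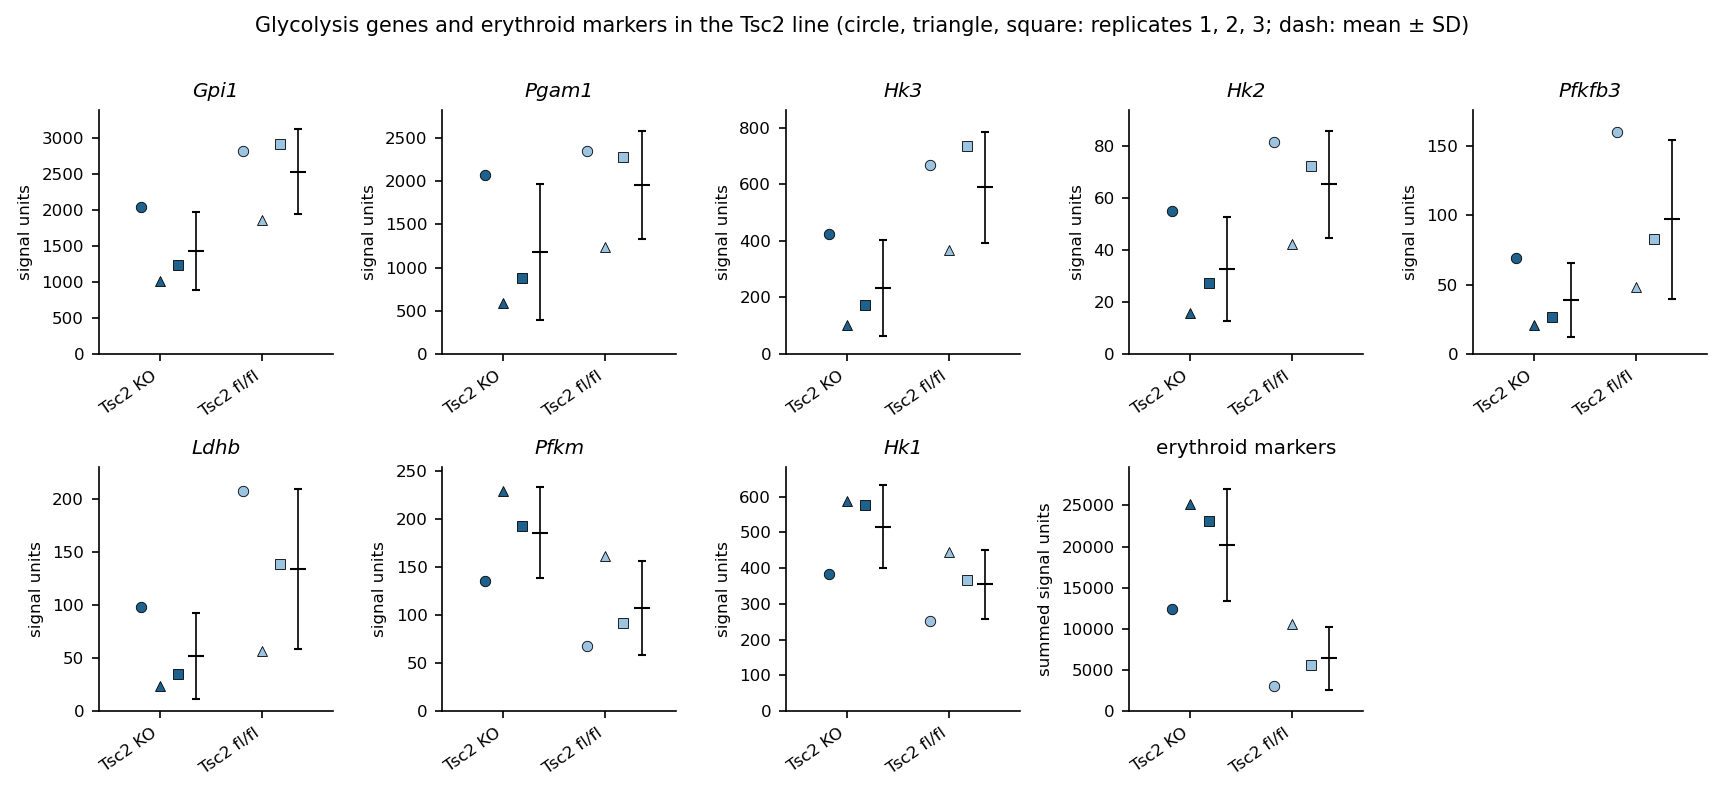
Signal units (vertical axes, from 0) of 8 glycolysis genes in Tsc2 KO and Tsc2 fl/fl GMP libraries, and the summed erythroid markers in the last panel. Symbols are replicates 1 to 3 and dashes give mean ± SD. In Tsc2 KO, replicate 1 (circle) is the highest library for Gpi1, Pgam1, Hk3, Hk2, Pfkfb3 and Ldhb and the lowest for Pfkm, Hk1 and the erythroid markers.

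The third comparison tests whether the Raptor and Tsc2 knockouts had different effects, as the Raptor effect minus the Tsc2 effect. Taldo1, Pdk3 and Slc16a3 passed, all with a negative difference, which is 8.57% of 35 members against 12.4% of 13237 genes (5.99% positive and 6.44% negative). For Taldo1 the difference was -1.13 (SE 0.15, limma adjusted p = 2.7e-04), from -0.70 in the Raptor line and 0.43 in the Tsc2 line. It passed in every alternative and without any single library. All 7 pentose phosphate genes had a negative difference (median -0.31, all genes 0.08), and 1 of them passed. Of the glycolysis genes 14 were positive and 14 negative.

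Pdk3 had 343, 303 and 298 signal units in Tsc2 KO and 264, 229 and 323 in Tsc2 fl/fl libraries, beside the lower Raptor KO values above. The effects were -0.59 in the Raptor line and 0.22 in the Tsc2 line, neither past the test, and their difference was -0.81 (SE 0.24, limma adjusted p = 0.0324). Slc16a3, the lactate exporter, had 7.78, 12.6 and 10.3 in Raptor KO and 15.2, 22.6 and 25.2 in Raptor fl/fl libraries. In the Tsc2 line it had 29.2, 35.1 and 65.9 in Tsc2 KO and 19.9, 20.3 and 23.5 in Tsc2 fl/fl libraries. Knockout and fl/fl libraries did not overlap in either line, with the Raptor KO ones below and the Tsc2 KO ones above. The effects were -0.96 and 0.91, and their difference -1.87 (SE 0.55, adjusted p = 0.0330). Pdk3 kept its call without Raptor KO replicate 3, Raptor fl/fl replicate 2, Tsc2 KO replicate 1 or Tsc2 fl/fl replicate 3, and lost it without any 1 of the other 8 libraries (-0.68, adjusted p = 0.0912 at most, without Raptor KO replicate 2). Slc16a3 kept its call without Raptor KO replicate 2, Raptor fl/fl replicate 1, Tsc2 KO replicate 1 or Tsc2 fl/fl replicate 2, and lost it without any 1 of the other 8 (-1.53, 0.118 at most, without Tsc2 KO replicate 3). Leaving out both libraries with Y-linked transcripts ended both calls, as did no trend or quantile normalization for Pdk3 and voom weights for Slc16a3 (adjusted p up to 0.110 and 0.0632). Hk2 and Gpi1 had positive differences just outside the threshold (1.55 and 0.93, adjusted p = 0.0516 and 0.0720). Both passed in several alternatives. Without both libraries with Y-linked transcripts 4 members passed, 3 positive and 1 negative, against 10.8% of 13040 genes. The positive ones were Hk2 (1.41, limma adjusted p = 0.0328), Gpi1 (0.92, 0.00852) and Pfkfb3 (1.58, 0.0419).

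**Figure D4:**
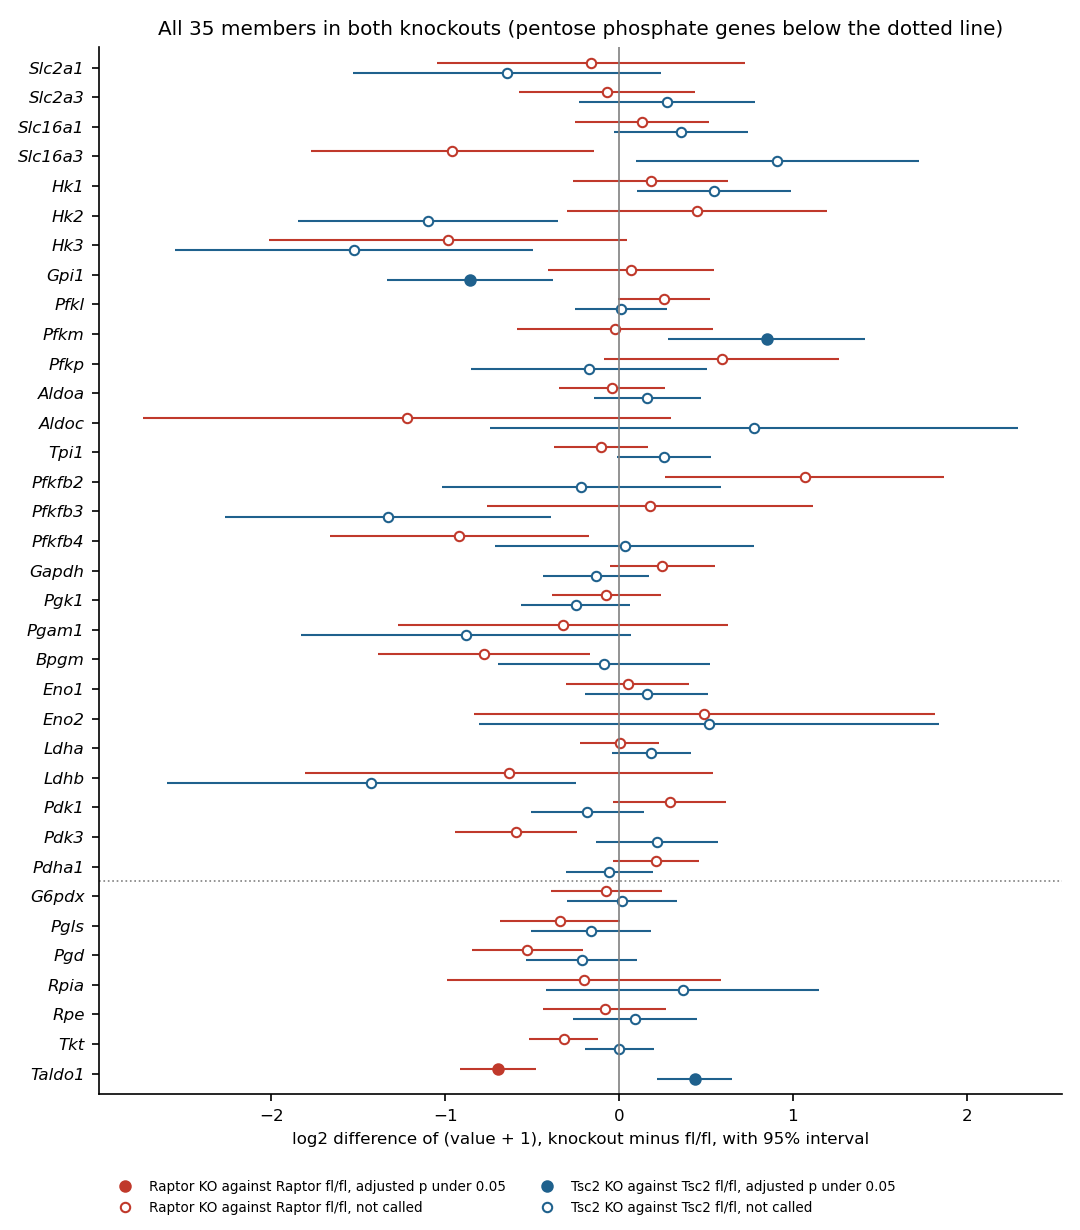
Log2 difference of the value plus 1 between knockout and fl/fl GMPs with its 95% interval (horizontal axis) for all 35 genes (vertical axis), Raptor line in red and Tsc2 line in blue. Filled points passed the test (adjusted p under 0.05), and pentose phosphate genes lie below the dotted line. Taldo1 is at -0.70 and 0.43, and the 7 red points of the pentose phosphate genes all lie left of 0.

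In differentiating Hoxb8 cells 33 of the 35 members could be tested, since Aldoc and Ldhb did not reach a value of 1 in 2 libraries. Rapamycin and SL0101-01 share the same 2 DMSO libraries, so the results of the inhibitors against DMSO are not independent of each other and their values are given side by side. With rapamycin, Pdk1, Slc16a1 and Gpi1 rose and Pfkfb4 fell: 4 of 33 members or 12.1%, against 11.7% of 11804 genes (5.4% higher and 6.35% lower). With SL0101-01, Pdk1, Slc16a1, Gpi1 and Pgls rose, and Slc2a3, Pfkfb2 and G6pdx fell: 7 of 33 members or 21.2%, against 10.9% of 11804 genes (5.09% higher and 5.79% lower). The median log2 difference of the glycolysis genes was 0.05 with rapamycin and -0.04 with SL0101-01, and that of the pentose phosphate genes 0.10 and -0.14, against -0.01 and -0.02 over all genes.

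Pdk1, the pyruvate dehydrogenase kinase best known as a hypoxia target, had 86.2 and 57.1 signal units with rapamycin, 87.5 and 46.2 with SL0101-01 and 28.4 and 23.2 with DMSO. All inhibitor libraries were above both DMSO libraries (1.41 with rapamycin, limma adjusted p = 0.00432, and 1.27 with SL0101-01, adjusted p = 0.0111). Slc16a1 had 98.1 and 73.9 with rapamycin, 91.8 and 118 with SL0101-01 and 46.6 and 48.1 with DMSO, again with no overlap (0.83, adjusted p = 0.0273, and 1.12, adjusted p = 0.00418). Gpi1 had 7361 and 6412 with rapamycin, 6675 and 7068 with SL0101-01 and 5184 and 5014 with DMSO. It was higher with both inhibitors by a small step (0.43, adjusted p = 0.0316, and 0.43, adjusted p = 0.0343). Under quantile normalization the Gpi1 difference with rapamycin was -0.03 (adjusted p = 0.908), so its direction flips with the scaling, and that with SL0101-01 was 0.37 (0.0555), no longer past the test. With all 18 libraries in 1 fit the Gpi1 call was lost with both inhibitors (0.429 with rapamycin and 0.450 with SL0101-01), and with the rapamycin and DMSO libraries alone it was lost with rapamycin (0.0678).

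The promoter windows of Pdk1 and Slc16a1 are shown because both genes rose with both inhibitors. Gpi1 rose with both inhibitors as well, and its window is not shown. The windows shown are RefSeq windows of GRCm38.p6 from 250 bases before to 50 after the start, and Pdk1 has a second window that is not shown. Capitals mark CACGTG (the E-box bound by MYC and related factors), ACGTG and GCGTG (cores bound by hypoxia-inducible factors) and TGACNNNGC (the antioxidant response element core bound by NRF2), on either strand. The Gpi1 window and the second Pdk1 window hold no match to any of these motifs. In the Slc16a1 window the first run of capitals holds an ACGTG within a CACGTG, overlapped by a TGACNNNGC match on the other strand.
Pdk1, chr2:71872974-71873273, plus strand: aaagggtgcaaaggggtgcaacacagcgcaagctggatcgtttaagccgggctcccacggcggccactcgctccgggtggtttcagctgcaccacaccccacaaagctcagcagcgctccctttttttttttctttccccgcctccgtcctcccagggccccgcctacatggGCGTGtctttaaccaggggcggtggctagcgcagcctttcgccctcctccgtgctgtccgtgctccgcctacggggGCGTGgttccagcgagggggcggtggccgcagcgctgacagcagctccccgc
Slc16a1, chr3:104638414-104638713, plus strand: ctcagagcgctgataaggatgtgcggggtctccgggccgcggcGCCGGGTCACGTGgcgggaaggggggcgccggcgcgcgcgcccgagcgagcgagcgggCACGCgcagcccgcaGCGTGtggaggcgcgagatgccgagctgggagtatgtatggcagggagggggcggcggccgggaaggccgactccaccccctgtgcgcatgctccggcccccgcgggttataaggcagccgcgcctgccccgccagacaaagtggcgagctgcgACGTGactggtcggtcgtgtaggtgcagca
RefSeq windows were found for 34 of the 35 members, 49 in all, and Slc2a3 was the member without one. CACGTG lay in 10.2% of the members' windows and 7.15% of all 32851 windows, ACGTG in 42.9% and 19.6%, GCGTG in 61.2% and 32.4%, and TGACNNNGC in 10.2% and 12.4%. The members' windows were richer in G and C, with a median of 60.3% against 52.7%, and the part of this in the shares was not tested. A match is a description of these letters.

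**Figure D5:**
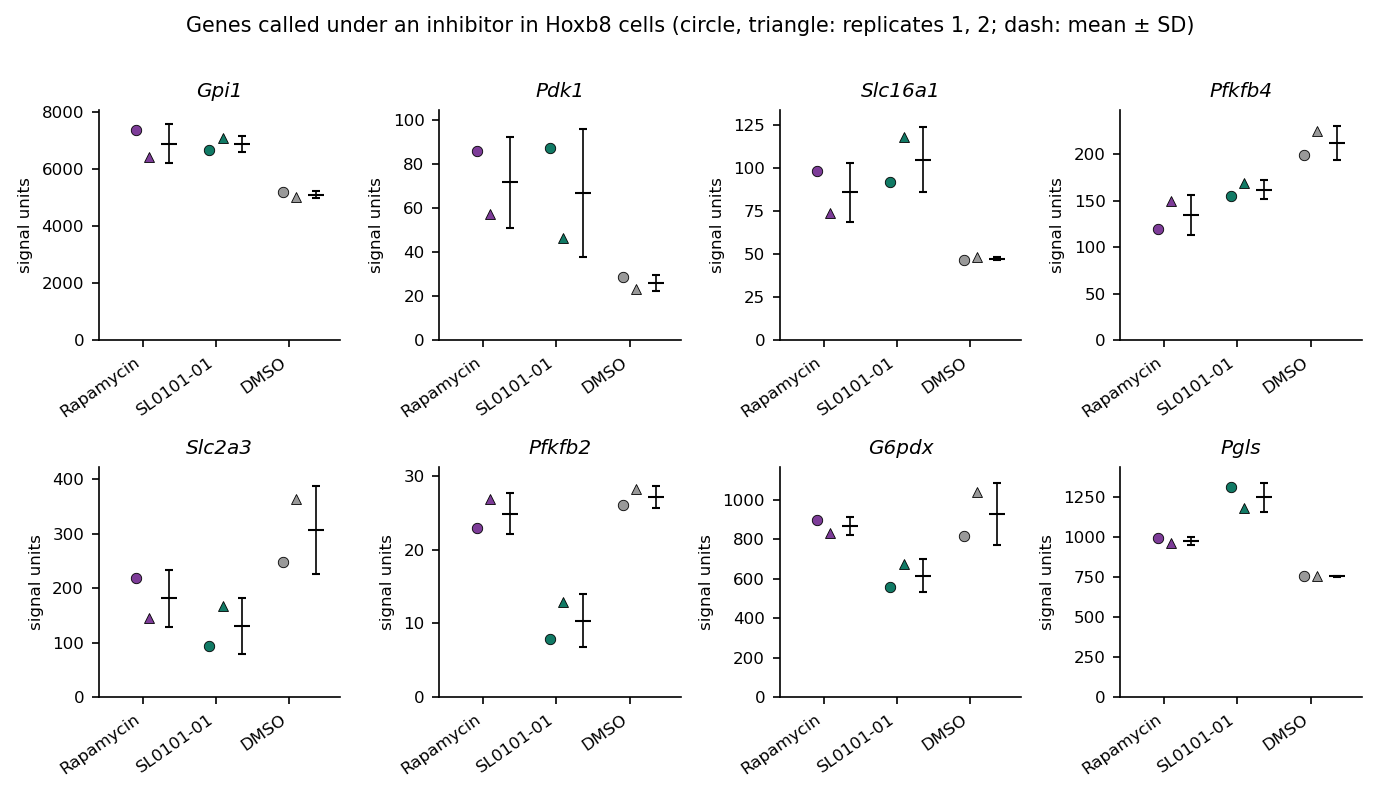
Signal units (vertical axes, from 0) of 8 genes that passed the test with an inhibitor in Hoxb8 cells, in rapamycin, SL0101-01 and DMSO libraries (horizontal axes). Symbols are replicates 1 and 2 and dashes give mean ± SD (n = 2). Pdk1, Slc16a1 and Gpi1 lie above DMSO with both inhibitors, and Pfkfb2 and G6pdx lie low with SL0101-01.

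Further members passed with 1 of the inhibitors. Pfkfb4, a PFKFB enzyme induced by hypoxia in other cells, had 119 and 150.1 signal units with rapamycin, 155 and 169 with SL0101-01 and 199 and 225 with DMSO (-0.66, limma adjusted p = 0.0218, and -0.39, adjusted p = 0.207). All 4 inhibitor libraries lay below DMSO. Slc2a3 had 218 and 144 with rapamycin, 94.4 and 167 with SL0101-01 and 249 and 364 with DMSO (-0.76, adjusted p = 0.0674, and -1.25, adjusted p = 0.00426). Here too the DMSO libraries were the highest. Between the inhibitors these genes were at -0.27 and 0.50 (rapamycin minus SL0101-01, adjusted p = 0.397 and 0.256). Pfkfb2, the form known from heart, had 22.9 and 26.9 with rapamycin, 7.87 and 12.9 with SL0101-01 and 26.1 and 28.2 with DMSO. Its SL0101-01 libraries were apart from the other 4 (-1.34 against DMSO, adjusted p = 0.0329).

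In the oxidative branch, Pgls had 996 and 961 signal units with rapamycin, 1314 and 1183 with SL0101-01 and 755 and 758 with DMSO. The 3 groups did not overlap, and the rise passed with SL0101-01 (0.72, SE 0.14, limma adjusted p = 0.00137) and not with rapamycin (0.37, adjusted p = 0.0862). G6pdx had 900.0 and 834 with rapamycin, 558 and 675 with SL0101-01 and 818 and 1039 with DMSO, and its SL0101-01 libraries were the lowest (-0.59, adjusted p = 0.0154). Pgd had 3481 and 3377 with rapamycin, 2540.5 and 2841 with SL0101-01 and 2926 and 3004 with DMSO, and did not pass with either (0.21 and -0.14). So the first enzyme of this branch was lower and the second higher with SL0101-01. In the non-oxidative branch none of 4 genes passed with either inhibitor. Taldo1 had 2734 and 2686 with rapamycin, 2363 and 2563 with SL0101-01 and 2836 and 2928 with DMSO (-0.09, 95% interval -0.36 to 0.18, and -0.23, -0.50 to 0.04). Tkt had 5542 and 5431, 5515 and 6066 and 4996 and 5218 in the same groups, with log2 differences of 0.10 and 0.18.

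The remaining leading enzymes of glycolysis did not pass with either inhibitor. Hk3 had 1959 and 1563 signal units with rapamycin, 1339 and 1492 with SL0101-01 and 1458 and 1442 with DMSO. Pgam1 had 2914 and 2694 with rapamycin, 3552 and 3711 with SL0101-01 and 3561 and 3402 with DMSO. Ldha had 1649 and 1604 with rapamycin, 1899 and 1831 with SL0101-01 and 1483 and 1618 with DMSO. Rapamycin libraries were the lowest for Pgam1, which passed under quantile normalization (fell by 0.54 against DMSO on the log2 scale, limma adjusted p = 0.00586, against 0.131 as deposited). As deposited, the log2 differences of these 3 genes from DMSO lay between -0.31 and 0.27. Pfkfb3 had 193 and 162 with rapamycin, 155 and 175 with SL0101-01 and 149 and 129 with DMSO. Pdha1 had 516 and 439 with rapamycin, 545 and 524 with SL0101-01 and 455 and 395 with DMSO. For both genes the SL0101-01 libraries lay above DMSO, and for Pfkfb3 the rapamycin libraries did too. Pdk3 averaged 59.1 ± 5.92 with rapamycin, 36.6 ± 0.253 with SL0101-01 and 42.4 ± 7.11 with DMSO (SD, n = 2 each), Slc16a3 137 ± 13.4, 154 ± 34.4 and 175 ± 12.8, and Pfkm 25.4 ± 12.1, 26.3 ± 2.51 and 21.4 ± 5.55.

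With 2 libraries per group, most Hoxb8 calls changed when 1 library was left out. Pgls with SL0101-01 passed without any single library. With rapamycin, Gpi1, Slc16a1 and Pfkfb4 passed without rapamycin replicate 2 and in none of the other 3 fits that leave out 1 library, with an adjusted p of up to 0.222, 0.181 and 0.230, and Pdk1 was lost without rapamycin replicate 1 (0.0625) and DMSO replicate 2 (0.0821). With SL0101-01, Pdk1 and Pfkfb2 passed without SL0101-01 replicate 2 and in none of the other 3 fits (adjusted p up to 0.269 and 0.259), Slc16a1 without SL0101-01 replicate 1 and in none of the others (up to 0.0695), and Gpi1 in none (up to 0.242). Slc2a3 and G6pdx were lost without SL0101-01 replicate 1 (-0.85 and -0.45) and DMSO replicate 2 (-0.98 and -0.41), and their differences kept their sign. Without an expression trend none of these calls held (adjusted p from 0.108 to 0.264). With all 18 libraries in 1 fit Pfkfb4 was lost with rapamycin (0.366) and G6pdx (0.0529) and Pfkfb2 (0.0990) with SL0101-01. Slc2a3 passed with rapamycin in the fit of its 4 libraries alone (0.0258).

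Set directly against each other, rapamycin at 100 nM and SL0101-01 at 10 nM differed in 1 of 33 members, G6pdx, which is 3.03% against 8.87% of 11804 genes (4.43% higher and 4.44% lower). G6pdx was higher with rapamycin (0.50, SE 0.15, limma adjusted p = 0.0461), and this call was lost without any 1 of the 4 libraries (adjusted p up to 0.380, without SL0101-01 replicate 1), without a trend, with the 4 libraries alone and with all 18 libraries in 1 fit (up to 0.295). Pgls was at -0.35 (95% interval -0.63 to -0.07, adjusted p = 0.117) and Pfkfb2 at 1.22 (interval 0.39 to 2.05, adjusted p = 0.0589). For the shared genes the intervals of the difference were -0.52 to 0.80 for Pdk1, -0.79 to 0.22 for Slc16a1 and -0.27 to 0.27 for Gpi1, and a p above the threshold does not show that the compounds act alike on them. The doses differ, so the compounds are compared as used.

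Maturation markers also differed between the Hoxb8 groups. The 12 GMP markers summed to 60515 to 61237 signal units with rapamycin, 27176 to 34812 with SL0101-01 and 14074 to 15365 with DMSO, and 10 markers of mature neutrophils to 62922 to 96777, 54123 to 81513 and 115135 to 159789. The inhibitor sums were above DMSO for the progenitor markers and below it for the neutrophil markers. Of the 12 GMP markers, 7 were called higher and 1 lower with rapamycin, and 5 higher and 1 lower with SL0101-01. Of the 10 neutrophil markers, 3 and 7 were called, all lower. Of 4 macrophage markers tested, 3 were called lower with rapamycin, and 3 lower and 1 higher with SL0101-01. The share of all genes called was 11.7% and 10.9%. Erythroid markers summed to 32 to 82 in all 6 libraries, with the 4 globin genes at 0. The part of the stage of maturation in the metabolic genes was not tested.

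The 12 members not given per library so far in any comparison were Aldoa, Aldoc, Bpgm, Eno1, Eno2, Gapdh, Pfkl, Pfkp, Pgk1, Rpe, Slc2a1 and Tpi1, and none passed in any of the 6 comparisons as tested. They include the glucose carrier Slc2a1 (GLUT1), the phosphofructokinase Pfkl, the aldolases, Tpi1, and Gapdh, Pgk1 and Eno1 of the steps that yield NADH, ATP and phosphoenolpyruvate. Their log2 differences ran from -1.22 (Aldoc) to 0.59 (Pfkp) in Raptor KO, -0.64 (Slc2a1) to 0.78 (Aldoc) in Tsc2 KO, -0.51 (Pfkl) to 0.16 (Bpgm) with rapamycin, -0.68 (Eno2) to 0.09 (Slc2a1) with SL0101-01 and -0.51 (Slc2a1) to 0.75 (Eno2) between rapamycin and SL0101-01. The extremes set by Aldoc and Eno2 come from values near 0 and depend on the added 1. Aldoc reached at most 6.63 signal units in GMPs. In Hoxb8 cells Eno2 reached at most 1.83 and was at 0 in both SL0101-01 libraries. The lowest limma adjusted p among the 12 members was 0.138 (Bpgm) in Raptor KO and 0.208 (Tpi1) in Tsc2 KO. In Hoxb8 cells it was 0.0849 (Pfkl) with rapamycin and 0.283 (Pgk1) with SL0101-01. Pfkl passed with rapamycin in a fit with a term for the replicate number (-0.51, limma adjusted p = 0.00975). Without rapamycin replicate 1 its difference was -0.88 from DMSO and -0.75 from SL0101-01. Pgk1 and Pfkp passed in the GMP fits named above. Pfkp also passed with the replicate term in Raptor KO (0.59, 0.0370) and in the difference between the knockouts (0.76, 0.0331). It passed in that difference without Tsc2 KO replicate 1 as well (1.16, 0.0152). Slc2a1 averaged 26 ± 5.15 signal units in Raptor KO, 29.5 ± 7.28 in Raptor fl/fl, 17 ± 11.9 in Tsc2 KO and 23.7 ± 4.00 in Tsc2 fl/fl GMPs (SD, n = 3 each). Gapdh averaged 438 ± 26 in Raptor KO, 369.7 ± 45.5 in Raptor fl/fl, 320.1 ± 51.5 in Tsc2 KO and 349.5 ± 35.8 in Tsc2 fl/fl.

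Neighbouring genes of the 2 pathways were counted from lists of their functions, beside the share of all genes called, which was 3.94% in Raptor KO, 12.4% in Tsc2 KO, 11.7% with rapamycin and 10.9% with SL0101-01. Values in parentheses are the log2 difference and the limma adjusted p. Of 13 further glycolysis genes tested in GMPs, none passed in Raptor KO (2 with an unadjusted p under 0.05) and Minpp1 (1.39, 0.0169) rose in Tsc2 KO. Of 12 tested in Hoxb8 cells, Adpgk, an ADP-dependent glucokinase, fell with rapamycin (-0.92, 2.2e-04). Pgm2 (0.68, 0.0212) rose with rapamycin, and Minpp1 (0.71, 0.0125) and Pgm2 (0.59, 0.0494) rose with SL0101-01. Of 5 further pentose phosphate genes none passed in Raptor KO (2 with an unadjusted p under 0.05). H6pd, the glucose 6-phosphate dehydrogenase of the endoplasmic reticulum, fell in Tsc2 KO (-1.16, 0.00761) and rose with rapamycin (0.59, 0.0335). Prps2, which makes the ribose donor of nucleotide synthesis, fell in Tsc2 KO (-0.63, 0.0352), and its relative Prps1 rose with SL0101-01 (0.90, 0.0382).

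Of 10 genes of pyruvate entry, Mpc1, a subunit of the mitochondrial pyruvate carrier, fell in Raptor KO (-0.65, 0.0401), and Mpc2, the other subunit, fell with rapamycin (-0.68, 0.00700). Dlat (0.61, 0.0222) and Dld (0.48, 0.0180), subunits of the pyruvate dehydrogenase complex, rose in Tsc2 KO. Pdp1, a phosphatase that reactivates the complex, rose with SL0101-01 (0.83, 0.0350). Of 9 further sugar and lactate carriers in GMPs none passed in Raptor KO (3 with an unadjusted p under 0.05), and Bsg (0.47, 0.0226), a partner protein of lactate carriers, and the glucose carrier Slc2a8 (1.10, 0.00976) rose in Tsc2 KO. Of 8 in Hoxb8 cells Emb, also a partner of lactate carriers, fell with both inhibitors (-0.66, 0.00191 with rapamycin and -0.75, 8.3e-04 with SL0101-01). The carrier Slc2a6 (-1.07, 5.7e-05) fell with rapamycin, and Bsg (0.46, 0.0461) rose with SL0101-01.

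Of 14 regulators of glucose genes tested in GMPs, 1 rose in Raptor KO and 1 rose and 1 fell in Tsc2 KO. Of 12 in Hoxb8 cells 1 rose and 2 fell with rapamycin and 2 rose and 1 fell with SL0101-01. Myc, whose product is known to drive glycolytic genes, passed in all 4 comparisons with a control and without any single library. It had 1196, 1298 and 1256 signal units in Raptor KO and 727, 851 and 714 in Raptor fl/fl libraries (0.71, limma adjusted p = 0.00430). In the Tsc2 line it had 516, 376 and 406 in Tsc2 KO and 849, 732 and 775 in Tsc2 fl/fl libraries (-0.87, 4.3e-04). So Myc was higher in Raptor KO and lower in Tsc2 KO, the opposite order to Taldo1. In Hoxb8 cells Myc had 569 and 459 with rapamycin, 419 and 408 with SL0101-01 and 90.9 and 68.1 with DMSO, again without overlap (2.69 and 2.38, 1.5e-09 and 7.7e-09). Nfe2l2, which encodes NRF2, a known activator of pentose phosphate genes, rose in Tsc2 KO (1.14, 0.00404) and fell with rapamycin (-0.62, 0.0112). Vhl, which marks the hypoxia-inducible factors for degradation, fell with rapamycin (-0.71, 0.0354). Hif1a, which encodes one of these factors, rose with SL0101-01 (0.52, 0.0357), and Txnip, which restrains glucose uptake, fell with it (-0.71, 0.0167).

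Of 15 hypoxia genes outside glycolysis in GMPs, Higd1a (-1.19, 0.00221) and Bnip3l (-0.59, 0.0355) fell in Raptor KO. In Tsc2 KO Ddit4 (2.09, 0.0119) and Fam162a (0.63, 0.0369) rose and Car9 (-1.74, 0.0344) and Ndrg1 (-1.52, 2.1e-04) fell. Of 14 in Hoxb8 cells none passed with rapamycin by limma (3 with an unadjusted p under 0.05), and Ero1l (0.65, 0.00286) rose and Ndrg1 (-1.003, 0.00206) fell with SL0101-01. Of 7 NRF2 targets Hmox1 (-3.19, 0.0197), the heme-degrading oxygenase, fell in Raptor KO. It had 2.12, 8.18 and 0 signal units in Raptor KO and 34.6, 48.3 and 11.4 in Raptor fl/fl libraries, so the size of this fitted difference depends on the added 1. Hmox1 rose in Tsc2 KO (2.28, 0.0440) and fell with rapamycin (-1.29, 0.00308) and with SL0101-01 (-1.21, 0.00645). The quinone reductase gene Nqo1 (1.59, 0.0189) rose and the glutathione reductase gene Gsr (-0.63, 0.0152) fell in Tsc2 KO.

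Among other producers of NADPH, 1 of 7 was called in Raptor KO, 4 of 7 in Tsc2 KO, 2 of 6 with rapamycin and 3 of 6 with SL0101-01. Mthfd2, a mitochondrial folate enzyme, had 40.3, 43.1 and 52.6 signal units in Raptor KO and 163, 119.9 and 72.2 in Raptor fl/fl libraries (-1.30, limma adjusted p = 0.00576). In the Tsc2 line it had 211, 225 and 264 in Tsc2 KO and 112, 122 and 96.9 in Tsc2 fl/fl libraries (1.07, 0.00828). Mthfd2 thus fell in Raptor KO and rose in Tsc2 KO, and the difference between the lines passed (-2.37, 6.3e-04). Mthfd1, its cytosolic relative, rose in Tsc2 KO (0.97, 0.00175), with rapamycin (0.68, 0.0196) and with SL0101-01 (1.22, 2.0e-04). The malic enzyme gene Me2 (0.76, 0.0206) rose in Tsc2 KO. The mitochondrial isocitrate dehydrogenase gene Idh2 fell in Tsc2 KO (-0.86, 0.0402) and rose with rapamycin (0.65, 0.00626) and SL0101-01 (0.77, 0.00179), while its cytosolic form Idh1 (-0.45, 0.0480) fell with SL0101-01.

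Of the calls in these lists, some held without any single library. Those that did were Higd1a, Mthfd2 and Myc in Raptor KO, H6pd, Mthfd1, Myc, Ndrg1 and Nfe2l2 in Tsc2 KO, Adpgk, Myc and Slc2a6 with rapamycin and Emb, Mthfd1 and Myc with SL0101-01. Each other call named from these lists against a control was lost in at least 1 fit that left out a library. Some of the calls that held were lost in other settings. Without an expression trend these were Myc in Raptor KO, Adpgk and Slc2a6 with rapamycin, and Emb and Mthfd1 with SL0101-01. Slc2a6 and Emb were also lost with all 18 libraries in 1 fit (limma adjusted p up to 0.428 and 0.689). Nfe2l2 in Tsc2 KO was lost with the 6 Tsc2 libraries alone (0.0528).

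Some members share sequence with other genes, so fragments could be lost from them or assigned to the wrong gene. All members' values were whole in fragments, so a split of fragments was not seen in them. Loss and wrong assignment were not tested. Over at least 300 bases at 95% identity, Gapdh matched 77 other annotated genes, Pgk1 4, Eno1 and Ldha 3 each, and Gpi1, Pfkp, Tpi1, Pfkfb2, Pgam1, Ldhb, Pdha1 and Rpe 1 each. Their values are uncertain to that extent. The other 23 members, among them Taldo1, Tkt, Pgd, Pgls, G6pdx, Hk3, Pdk1, Slc16a1 and Slc16a3, had no such match.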

How the data were processed

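RNA of 12 sorted GMP samples and 6 Hoxb8 samples was profiled by SmartSeq2. The submitters' processing notes list Cuffnorm, Cufflinks 2.2.1, TopHat2 2.0.10 and BWA, with the build not given in the sources used here. Signal in the deposited table behaves as whole fragments scaled by 1 factor a library: 98.9% to 99.0% of non-zero values were whole in units of that factor (within 0.01), which gave every library's fragments, and all members' values were whole. Depth limits precision for genes of a few fragments.

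The test was limma 3.58.1 (R 4.3.3). Its input was the log2 of value plus 1, which understates changes of low genes, and variances were moderated robustly along an expression trend. GMPs (4 groups) and Hoxb8 cells (3 groups) were fitted separately. A gene was tested if it reached 1 in at least 3 GMP or 2 Hoxb8 libraries. P-values were Benjamini-Hochberg adjusted within each of 6 comparisons at 0.05. Count models were not run, because not all values were whole. The fit with voom weights used the recovered fragments rounded to whole numbers. The members and lists were chosen with earlier results of these data known. Members called in a comparison are given per library there, and the member highest in each role list in every comparison with a control. From each further list up to 4 called genes with the largest differences are named per comparison with a control. The fits were also run on simulated data with independent libraries and, for each gene, the same spread in every group. Those data lack the uneven spread of the Tsc2 libraries, so they do not test the calls there. Alternatives covered the trend, quantile normalization, filters, pseudocounts, voom weights, libraries in the fit, a replicate block and leaving out libraries.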

Additional observations from a re-analysis of the deposited data

Results flagged for a closer look

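The effects of the Raptor and Tsc2 knockouts differed, by a test of the difference itself, for 3 members. Taldo1 was at -0.70 in Raptor KO against Raptor fl/fl and 0.43 in Tsc2 KO against Tsc2 fl/fl, a difference of -1.13 on the log2 scale (limma adjusted p = 2.7e-04); each Raptor KO library was below and each Tsc2 KO library above all fl/fl libraries of its line. Pdk3 was at -0.59 and 0.22, a difference of -0.81 (adjusted p = 0.0324). Slc16a3 was at -0.96 and 0.91, a difference of -1.87 (adjusted p = 0.0330). Of all 13237 genes tested 12.4% passed this test, and what sets these 3 apart was not tested.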

How the results depend on the processing

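The number of members called changed with several settings, and the share of all genes called under the same setting is given in parentheses. For Raptor KO it was 1 (3.94%), and 6 (8.63%) with the replicate block, 8 (10%) with the 6 Raptor libraries alone and 4 (5.9%) with all 18 libraries in 1 fit. For Tsc2 KO it was 3 (12.4%), and 0 (6.25%) without an expression trend, 0 (3.89%) with the 6 Tsc2 libraries alone, 5 (16.3%) with a filter at 10, 5 (9.78%) without both replicate 2 libraries, 9 (18.9%) with the replicate block and 7 (15.2%) with all 18 libraries. For the difference between the knockouts it was 3 (12.4%), and 8 (18.8%) with the block and 5 (14.5%) with all 18 libraries. With rapamycin it was 4 (11.7%), and 0 (1.45%) without a trend and 2 (4.99%) with all 18 libraries. With SL0101-01 it was 7 (10.9%), and 0 (0.737%) without a trend and 4 (4%) with all 18 libraries. Between the inhibitors it was 1 (8.87%), and 0 (0%) without a trend, 3 (7.93%) with quantile normalization, 5 (14.3%) with the block, 0 (4.77%) with the 4 libraries compared and 0 (1.83%) with all 18 libraries. Leaving out 1 library gave 1 to 1 members for Raptor KO, 0 to 10 for Tsc2 KO, 1 to 10 for the difference, 0 to 4 for rapamycin, 1 to 5 for SL0101-01 and 0 to 1 between the inhibitors; where 1 library was left in a group it is assumed to vary like the others. The cause was not tested.

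The pairing by replicate number was checked by the correlation of deviations from group means, which was 0.08, 0.07 and 0.02 in the Raptor line, 0.34, 0.43 and -0.05 in the Tsc2 line and at most 0.09 in Hoxb8 cells, so the numbers do not pair the samples throughout. Direction turned for Gpi1: with quantile normalization to -0.034 for rapamycin against DMSO and -0.40 for rapamycin against SL0101-01, where the difference was 0.00 and ran from -0.099 to 0.100 when 1 library was left out. With voom weights 50% of the genes called in Raptor KO were higher, against 38.7%.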
